A study of Monodelphis domestica with 5 samples.

Results

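The H3K9Ac landscape of opossum fibroblasts was described from every peak of H3K9Ac enrichment that the study deposited for chromosomes 1 to 8. These were 51165 of the 52511 peaks in the H3K9Ac list (97.4%), out of 308249 peaks in the 4 lists of the series. The 498 peaks on the X chromosome and the 848 peaks on unplaced sequence were left out.

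The study profiled histone modifications in the gray short-tailed opossum, Monodelphis domestica, to look for imprinted genes. Ear fibroblasts of 1 adult male, from an LL1 mother and an LL2 father, were grown as primary cultures. The labels give passages 4 to 6, while the methods of the study state a passage limit below the upper end of that range. Native chromatin was cut with micrococcal nuclease and precipitated with antibodies to H3K4me3, H3K9Ac, H3K9me3 or H3K27me3, and 1 library was sequenced for each antibody and 1 for input chromatin. All 4 marks therefore came from the same male, the same cross and the same kind of cells, and no library had a replicate. A peak is a stretch in which the MACS program found more reads in the antibody library than in the input. Each peak carries a score made from the MACS p-value on a log10 scale, with the sign reversed and multiplied by 10, so that a score of 50 stands for a p of 1e-05 and a score of 100 for a p of 1e-10.

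Acetylation of lysine 9 on histone H3 is placed by histone acetyltransferases and removed by deacetylases. It neutralises a charge on the histone tail, is bound by proteins with bromodomains or YEATS domains, and marks the promoters of transcribed genes, where trimethylated lysine 4 (H3K4me3) is also found. The same lysine cannot be acetylated and trimethylated at once, and trimethylated lysine 9 (H3K9me3) is known from heterochromatin. H3K4me3 and H3K9Ac are the marks of activation in the study, and H3K9me3 and H3K27me3 are its marks of repression.

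H3K9Ac peaks covered 129.96 Mb, or 3.80% of the 3423 Mb between the first base and the last peak end of the 8 chromosomes. There were 14.9 peaks per Mb. H3K4me3, the other mark of activation, had 75115 peaks on the same chromosomes at 21.9 per Mb and covered 5.68%. H3K9me3 had 81865 peaks and H3K27me3 had 4484, at the score of at least 50 used for these lists. The 4484 are a minority of the H3K27me3 peaks that the study states for the whole genome. Values for H3K27me3 here describe only that part of its list. The acetylated peaks were narrow for the most part, with a median width of 2070 bases, quartiles of 1484 and 3014 bases and a range from 400 to 36168 bases. Only 293 peaks (0.573%, exact 95% binomial interval 0.509 to 0.642%) were 10 kb or wider, and 18 were 20 kb or wider. The widest 10% of the peaks nevertheless held 24.6% of the covered bases. Such intervals treat peaks as independent and cover counting error only. Numbers of peaks have no error here, because each list comes from a single library.

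Width and score rose together. Spearman's rho was 0.915 over the 51165 peaks, which share 1 library and 1 input, and it lay between 0.911 and 0.919 on each of the 8 chromosomes. When the peaks were divided by width into 10 classes of equal size, the narrowest class, at a median of 1126 bases, scored 60.4 at its median. In class 5 the median score was 182 at 1938 bases, and in class 10 it was 2085 at 5563 bases. The same correlation was 0.904 for H3K4me3, 0.706 for H3K9me3 and 0.680 for H3K27me3 at a score of at least 50. The score is a p-value for reads summed within the peak, so a wider peak can reach a higher score at the same read density, and the lists do not give the reads that would tell width and density apart.

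**Figure D1:**
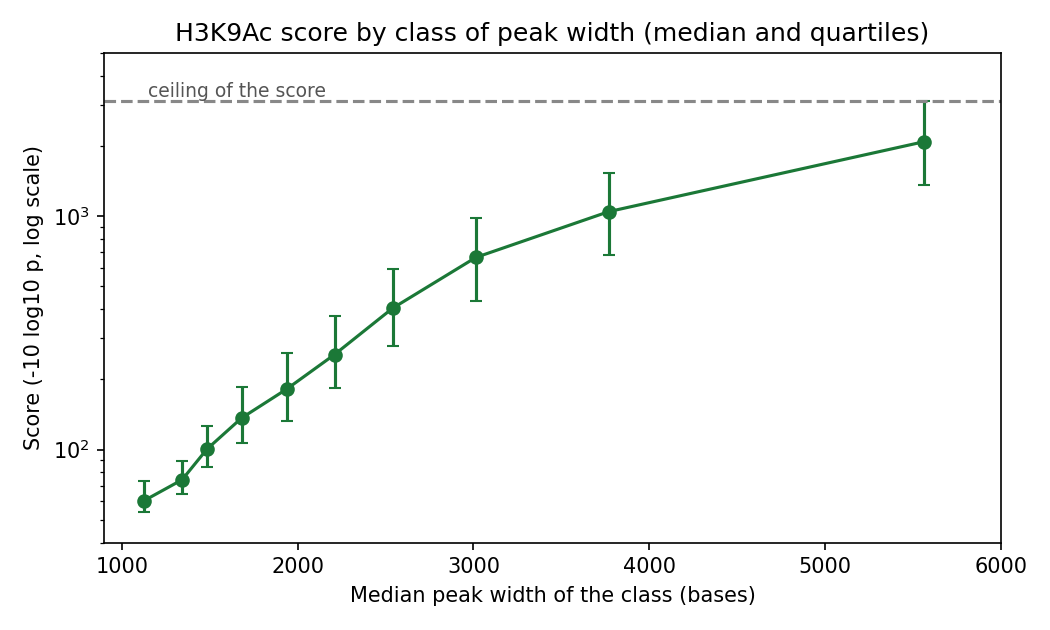
Score of H3K9Ac peaks (vertical axis, log scale) against the median width in bases of each of 10 equal classes of peaks ordered by width, with points at the median score and bars from the lower to the upper quartile. The median climbs in every step, from 60.4 to 2085, and the upper quartile of the widest class lies on the dashed line at 3100.

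Scores piled up at 3100, which is called the ceiling here. Some went above it, up to 3233, and the peaks at 3100 or more held 124 distinct scores. There were 101 peaks from 3000 up to 3100 and 1337 from 3100 up to 3200. In all, 1363 peaks (2.66%) had a score of 3100 or more, and their widths ran from 3304 to 36168 bases with a median of 7159 bases. No peak narrower than 3 kb reached it, against 90.4% of the peaks of 10 kb or more. Scores of the strongest peaks therefore do not give their order, and the rank correlation without the peaks at 3000 or more was 0.908.

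The 5 widest peaks all had a score of 3100. The widest, on chromosome 3 from 434811713 to 434847880 (MonDom5), was 36168 bases long and lay on 1 H3K4me3 peak of nearly the same extent, 35944 bases. The next was on chromosome 4 from 277927138 to 277957285 (30148 bases). The others were on chromosome 1 from 144851797 to 144881090 (29294 bases), on chromosome 1 from 343000840 to 343029639 (28800 bases) and on chromosome 2 from 172162924 to 172190057 (27134 bases). Each of the 5 shared bases with exactly 1 H3K4me3 peak, and those H3K4me3 peaks were 28486 to 35944 bases wide, so the acetylated and the H3K4me3 peak had similar limits at these places. None of the 5 was within 10 kb of a candidate region printed by the study.

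Some peaks left the common relation. The highest score under 1000 bases was 675.74, at a peak of 842 bases on chromosome 4 from 188986811 to 188987652, while the median of the 1062 peaks of that class was 57.9. The next were a peak of 670 bases on chromosome 3 from 457092279 to 457092948 with a score of 417.39 and a peak of 930 bases on chromosome 5 from 139835230 to 139836159 with a score of 351.81. All 3 lay on 1 H3K4me3 peak, which for the first was 871 bases wide and scored 1504. At the other end, the lowest score among peaks of 10 kb or more was 1102, at a peak of 10010 bases on chromosome 3 from 449109301 to 449119310. A peak on chromosome 8 from 138182120 to 138192968 scored 1448 and a peak on chromosome 5 from 102504788 to 102516557 scored 2067. No peak of 10 kb or more was thus as weak as the median peak of the list, which scored 225. Among peaks from 7500 bases up to 10 kb the lowest score was 117.

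The 141 named and 34 unnamed regions at gene ends that the study printed as candidates give the only gene names on this build here. To be a candidate in the study, a gene needed a significant H3K9Ac peak at its putative promoter, among other criteria, in these same libraries. Acetylation near the regions is therefore not independent, and the genes that follow were chosen after their values were seen. Of the 175 regions, 45 (25.7%, 19.4 to 32.9%) shared a base with an H3K9Ac peak and 111 (63.4%, 55.8 to 70.6%) had one within 10 kb. The rest had none that close to the gene end, which does not mean that their promoters lacked one. No other regions were measured in the same way, so these shares have no comparison. The broad peaks near some of them are given as examples. Vimentin (VIM), the intermediate filament protein of fibroblasts, had at its 3′ region a peak of 16266 bases with a score of 3100, number 36 of the list by width. Lamin A/C (LMNA), a protein of the nuclear lamina, lay 5646 bases from a peak of 21320 bases, number 13 by width, in a cluster of 5 peaks over 43.5 kb. The homeobox gene IRX2 carried a peak of 21692 bases, number 12 by width, whose nearest neighbour was 50911 bases away, so a very broad peak could also stand alone. ADM, which encodes the vasodilator peptide adrenomedullin, carried a peak of 16079 bases in a cluster of 5, and BHLHE40, a basic helix-loop-helix repressor, one of 14839 bases in a cluster of 4. Each of these 5 peaks had a score of 3100. Other regions had no broad peak close by. COL4A1, a collagen of basement membranes, had a peak of 2447 bases and a score of 326 at 6369 bases from its region, and FN1, which encodes fibronectin, had none within 10 kb. The regions are gene ends, so these values do not describe the genes' promoters.

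The homeobox gene Meis1 had broad acetylation at both of the places that the study printed for it. The peak on its CpG island, on chromosome 1 from 624939253 to 624963209, was 23957 bases wide, number 7 of the list, and belonged to a cluster of 7 peaks over 69.8 kb. The peak on its 3′ region, from 624790691 to 624805407, was 14717 bases wide, number 59 of the list, and had 1 cluster partner. Both scored 3100, and their 1 Mb bin was 10.2% covered, number 190 of 3419 bins. The peak on the CpG island of Cstb (6775 bases, score 2091) ranked 1281 by width. The peaks on the islands of Igf2r (3786 bases, score 1061) and Rpl17 (1632 bases, score 169) ranked 7612 and 34359. Each of these 3 lay in a cluster of 2.

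Neighbouring peaks were mostly a few kb to about 50 kb apart. The 51157 gaps between neighbours on a chromosome had a median of 17145 bases and quartiles of 4651 and 48931 bases, while the mean, 64246 bases, was far above the median. Gaps under 1 kb made up 9.59% (9.34 to 9.85%), gaps under 10 kb 38.3% (37.9 to 38.7%) and gaps under 50 kb 75.5%. On a log scale the gaps formed 1 broad hump with no separate class of short gaps. H3K4me3, with more peaks, had a median gap of 12431 bases and 45.0% of gaps under 10 kb, and its curve had the same shape a little to the left.

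**Figure D2:**
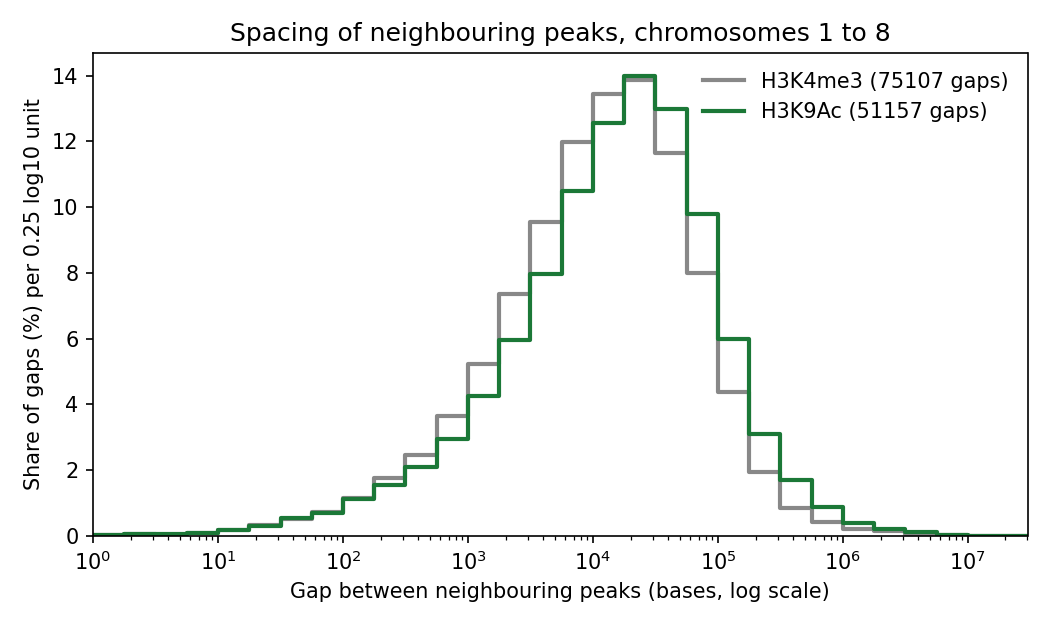
Share of gaps (percent, vertical axis) in steps of 0.25 log10 units of gap length in bases (horizontal axis, log scale), for 51157 H3K9Ac gaps in green and 75107 H3K4me3 gaps in grey. Both curves have 1 hump, and the H3K9Ac curve lies to the right, with a median of 17145 against 12431 bases.

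A small number of long gaps took up most of the chromosomes. The 6332 gaps of 100 kb or more were 12.4% of all gaps but 67.2% of the span, and the 372 gaps of 1 Mb or more were 0.727% of gaps and 24.4% of the span. These 836 Mb without acetylation were not empty of marks. They held 39056 of the 81865 H3K9me3 peaks with a score of at least 50 (47.7%), which is 46.7 per Mb against 16.5 per Mb elsewhere. That H3K9me3 set is larger than the one the study states at a p of 1e-05. H3K4me3 was the reverse, with 1.26 peaks per Mb inside and 28.6 outside, and H3K27me3 was at 0.312 inside and 1.63 outside. The heterochromatin mark was thus denser and both other marks sparser in the long unacetylated stretches. No annotation of this build was used, so the genes, repeats and assembly gaps of the stretches were not analysed here.

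The longest stretch without an H3K9Ac peak was on chromosome 3 from 117893809 to 137781084, 19.9 Mb in length. It held 1537 H3K9me3 peaks (77.3 per Mb), 4 H3K4me3 peaks and 0 H3K27me3 peaks. The next were on chromosome 7 from 108473919 to 118896404 (10.4 Mb, 912 H3K9me3 peaks), on chromosome 5 from 158218854 to 168465232 (10.2 Mb, 851 H3K9me3 peaks) and on chromosome 7 from 121041934 to 129702372 (8.66 Mb, 647 H3K9me3 peaks). The fifth, on chromosome 7 from 37280001 to 45502345 (8.22 Mb), went against the others with 54 H3K9me3 peaks, or 6.57 per Mb, fewer than the 16.5 per Mb outside long gaps. Lack of acetylation and density of H3K9me3 were thus not always found together.

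Peaks less than 10 kb apart were joined into clusters. By this measure 20900 peaks (40.8%, 40.4 to 41.3%) stood alone, and 17747 (34.7%, 34.3 to 35.1%) were in 4423 clusters of 3 or more. There were 1047 clusters of 5 or more and 67 clusters of 10 or more, the latter with 801 peaks. H3K4me3 had 33.7% of its peaks alone, 43.8% in clusters of 3 or more and 234 clusters of 10 or more, on a longer list. With a score of at least 100 the number of large H3K9Ac clusters was 19 and with peaks under 1 kb apart merged it was 24, so that this number depended on weak and on closely spaced peaks.

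Peaks in large clusters were somewhat wider and stronger than peaks alone. The median width rose from 1987 bases for single peaks through 2051, 2155 and 2245 bases in clusters of 2, of 3 to 4 and of 5 to 9, to 2457 bases in clusters of 10 or more. The median score went from 202 to 325 over the same classes, and the share of peaks that touched an H3K4me3 peak from 89.5% (89.1 to 89.9%) to 93.5% (91.6 to 95.1%). At least 1 peak at the ceiling was present in 55.2% of the clusters of 10 or more and in 1.62% of single peaks. A cluster with more peaks has more chances to hold one, so this last difference follows in part from cluster size.

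The cluster with most peaks was on chromosome 8 from 138218058 to 138353291, with 20 peaks in 135 kb that covered 51.0% of it. Its scores ran from 74.2 to 3100 with a median of 288, and 18 of its peaks touched an H3K4me3 peak. The second, on chromosome 6 from 254350201 to 254474377, had 18 peaks in 124 kb with 2 of them at the ceiling. The third and the fourth were both on chromosome 1 with 17 peaks each. The cluster from 35526235 to 35626395 was 59.8% covered with a median score of 416, and the cluster from 97962286 to 98075774 was 33.5% covered with a median score of 159 and no peak above 2008. The fifth, on chromosome 8 from 87556002 to 87641780, had 16 peaks in 85.8 kb and a median score of 138. Clusters of almost equal number thus differed in how strong their members were.

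Neighbouring peaks did not resemble each other in strength. Spearman's rho between the scores of neighbours was 0.0319 for the 4908 pairs under 1 kb apart and 0.0226 for the 12526 pairs 50 kb or more apart, and in the classes between it was 0.0164 to 0.0221. At all of these distances the score of a peak said next to nothing about that of its neighbour. Isolated peaks were weaker than crowded ones. Peaks whose nearest neighbour was under 1 kb away scored 279 at the median (9218 peaks), and those with none within 200 kb scored 154 at the median and were narrower, at 1832 bases (531 peaks). The isolated peaks touched H3K4me3 in a like share, at 93.6% (91.2 to 95.5%) against 93.3% (92.8 to 93.8%), with lower values of 88.5 to 92.0% in the classes between.

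Covered bases were spread unevenly over the 3419 whole bins of 1 Mb. A bin had a median of 13 peaks and 30.6 kb of covered bases, with quartiles of 8.10 and 58.2 kb and a highest value of 245 kb. The mean share was 3.80% with an SD of 3.51 percentage points over bins, a coefficient of variation of 0.924. It was 0.852 for H3K4me3, 0.962 for H3K9me3 and 2.01 for the 4484 H3K27me3 peaks kept here. The richest 10% of bins held 29.5% of the covered bases and the poorest 1709 bins held 14.0%. No peak centre fell in 459 bins (13.4%, 12.3 to 14.6%), while 209 bins (6.11%) were covered to 10% or more.

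The 5 richest bins had 59 to 72 peaks each. The first was on chromosome 1 from 455000001 to 456000000, 24.5% covered by 72 peaks with a median score of 498, 10 of them at the ceiling. The second was on chromosome 5 from 252000001 to 253000000 (20.9%, 65 peaks), the third on chromosome 1 from 273000001 to 274000000 (20.4%, 66 peaks), the fourth on chromosome 5 from 249000001 to 250000000 (20.3%, 59 peaks) and the fifth on chromosome 6 from 82000001 to 83000000 (20.2%, 61 peaks). Their widest peaks were 10293 to 20196 bases, so the richest bins were filled by many peaks and not by 1 giant peak. They also held 73 to 90 H3K4me3 peaks and 7 to 29 H3K9me3 peaks.

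Rich bins lay next to rich bins only over short distances. Spearman's rho of the covered share between bins on the same chromosome was 0.425 for direct neighbours (3411 pairs), 0.234 at 2 Mb, 0.0852 at 5 Mb and 0.0415 at 10 Mb. The 209 bins at 10% or more formed 179 runs, of which the longest was 4 Mb, on chromosome 2 from 254000001 to 258000000 with 158 peaks. H3K9me3 covered 6.44% of that run and 5.02% of a run of 3 Mb on chromosome 2 from 494000001 to 497000000, against 5.26% on average over all bins, while a further run of 3 Mb on chromosome 2 from 203000001 to 206000000 was at 3.21%, so such runs were on both sides of the average. Bins without a covered base ran on for longer, with 456 bins in 230 runs and a longest run of 19 Mb, inside the long stretch on chromosome 3.

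On average over bins, H3K4me3 cover rose with H3K9Ac cover, and H3K9me3 cover was highest where H3K9Ac was least. Over the 3419 bins the covered share of H3K9Ac had a Spearman's rho of 0.971 with that of H3K4me3, 0.383 with that of H3K27me3 and -0.35 with that of H3K9me3. These are descriptions of bins that share the input library, the assembly and its mappable sequence. When the bins were divided into 10 classes from least to most H3K9Ac, class 1 had none, and H3K9me3 peaks covered 12.8% of its bases on average. H3K9me3 cover was 9.01% in class 2 and 5.14% in class 3, and it was between 3.34 and 4.11% from class 4 to class 10. The drop in H3K9me3 lay at the poor end, and among the better acetylated bins there was little further change. H3K27me3 cover went the other way, from 0.0502% to 0.470%.

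**Figure D3:**
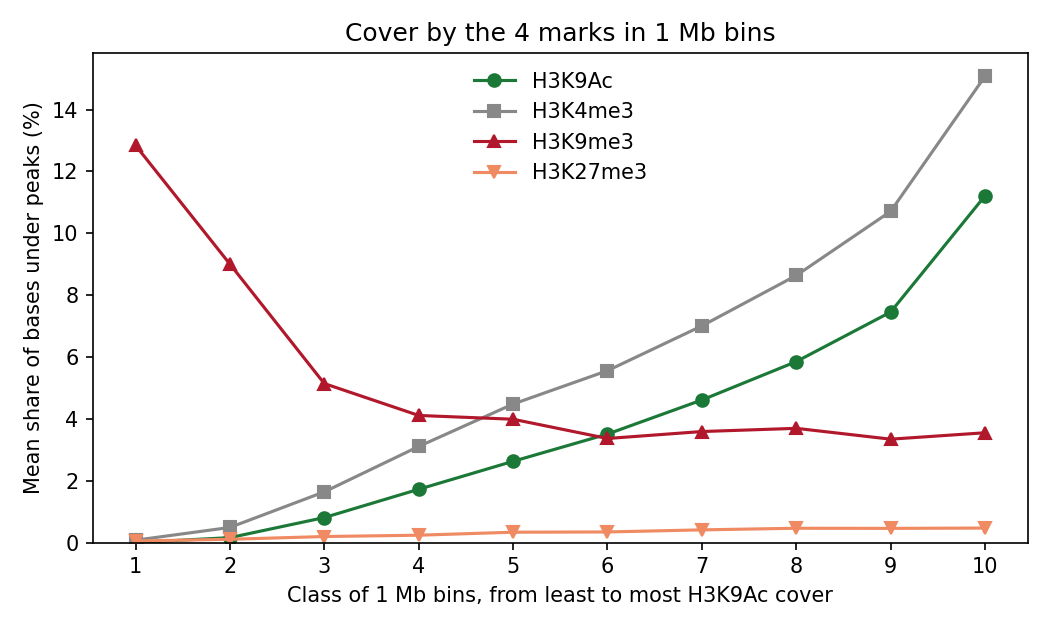
Mean share of bases under peaks (percent, vertical axis) of the 4 marks in 10 classes of the 3419 bins of 1 Mb, ordered from least to most H3K9Ac cover (horizontal axis). H3K9me3 falls from 12.8 to 4.11% over the first 4 classes and then stays near that level, while H3K4me3 rises to 15.1% beside the 11.2% of H3K9Ac.

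Acetylated bases gained on H3K4me3 bases as bins became richer. The ratio of H3K9Ac to H3K4me3 cover was 0.326 in class 2 of the bins, 0.587 in class 5 and 0.744 in class 10. Bins were ordered by H3K9Ac, which favours that direction by itself. The mean width of the H3K9Ac peaks in these classes was 1822, 2291 and 2848 bases, and the median score was 122, 192 and 284.

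Cover also differed between chromosomes. Chromosomes 1 and 2 had the highest covered shares, 4.24 and 4.22%, followed by chromosomes 6 (3.91%), 8 (3.90%), 4 (3.77%) and 3 (3.54%). Chromosomes 5 and 7 were lowest at 2.99 and 2.89%, so the ratio of the highest to the lowest was 1.47. The SD over 1 Mb bins was 3.19 to 3.73 percentage points within each chromosome, which is the spread of single bins and not the error of a chromosome's value. With 1 library the difference between chromosomes has no replicate check. Median peak widths (2017 to 2105 bases) and median scores (210 to 234) were close to each other on all 8.

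Chromosomes 5 and 7 had the most empty bins and also the least cover in the bins that were not empty. No peak centre fell in 22.0% of the bins of chromosome 5 and in 24.2% of those of chromosome 7, against 9.98 to 14.2% on the others. In the bins with a peak, the mean share covered was 3.84 and 3.81% on these chromosomes, against 4.13 to 4.74% on the others. Their median gaps, 17010 and 18269 bases, were within the range of 16097 to 19690 bases of the other chromosomes, and 4 of the 5 longest stretches without a peak were on these chromosomes. H3K4me3 cover was lowest on the same chromosomes, at 4.60 and 4.55%. Along the chromosomes, cover averaged over the 8 chromosomes ranged from 3.14 to 4.60% between 10 equal segments of length, with a lowest single value of 0.467% in segment 5 of chromosome 7, where 2 of the long stretches lie.

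**Figure D4:**
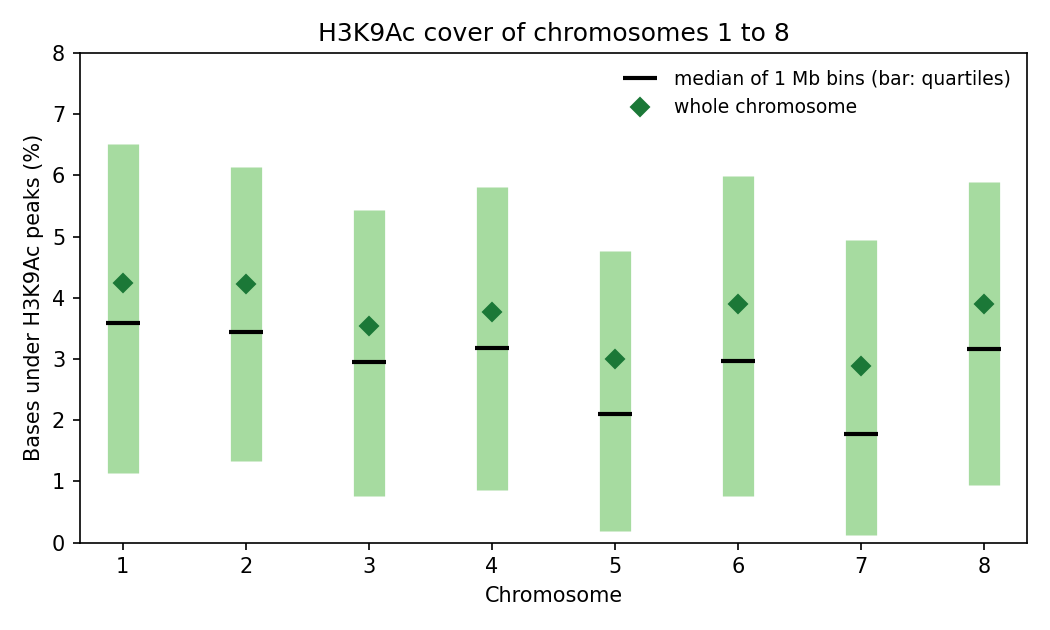
Share of bases under H3K9Ac peaks (percent, vertical axis) on chromosomes 1 to 8, as whole-chromosome values (diamonds) and as the median (line) and quartiles (bar) of 1 Mb bins. The diamonds run from 2.89% on chromosome 7 to 4.24% on chromosome 1, and the medians of bins on chromosomes 5 and 7 are below those of the other 6.

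Acetylated peaks and H3K4me3 peaks were mostly paired. Of the 75115 H3K4me3 peaks, 30895 (41.1%) touched no H3K9Ac peak, 41267 (54.9%) touched 1, 2661 touched 2, 239 touched 3, 40 touched 4 and 13 touched 5 or more, with 7 as the highest number. Touching means at least 1 shared base. In all 2953 H3K4me3 peaks, 3.93% (3.79 to 4.07%) of all and 6.68% of those touched, held 2 or more acetylated peaks. From the other side, 6253 H3K9Ac peaks (12.2%, 11.9 to 12.5%) had a companion in the same H3K4me3 peak, a share that was 3.05% when H3K9Ac peaks under 1 kb apart were merged. Another 39855 (77.9%) were alone in theirs and 5057 (9.88%) touched none.

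The number of acetylated peaks followed the width of the H3K4me3 peak. The median width was 1441 bases for H3K4me3 peaks with no acetylated peak, 2502 bases with 1, 5814 with 2, 10674 with 3 and 17922 with 4. Among those under 1 kb 83.4% had none, among those of 2 to 3 kb 24.4%, among those of 5 to 10 kb 1.49%, and among the 82 of 20 kb or more none lacked one. Of those 82, 80.5% held 2 or more, with a mean of 3 acetylated peaks. The bases of the H3K4me3 peak that were acetylated stayed between 72.0 and 76.8% in every width class from 3 kb up, so that wider H3K4me3 peaks held more acetylated peaks over about the same share of their length. A wider peak also has more room for a break.

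**Figure D5:**
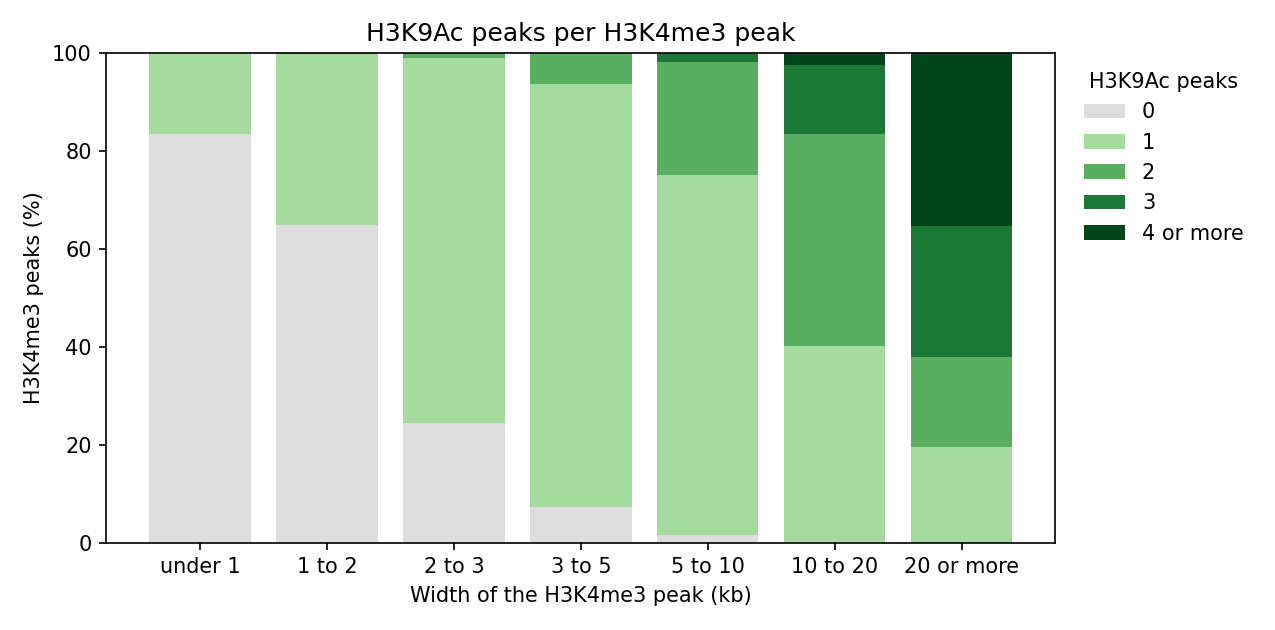
Share of H3K4me3 peaks (percent, vertical axis) that touched 0, 1, 2, 3 or at least 4 H3K9Ac peaks, by width of the H3K4me3 peak in kb (horizontal axis). The share with none falls from 83.4% under 1 kb to 0 at 20 kb or more, where 80.5% touched 2 or more.

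Acetylated peaks that shared an H3K4me3 peak were separated by short breaks. The 3317 gaps inside 1 H3K4me3 peak had a median of 320 bases and quartiles of 109 and 880 bases, against a median of 19702 bases for the other gaps. Of the 1694 gaps under 200 bases, 75.1% (73.0 to 77.1%) lay within 1 H3K4me3 peak. That share was 52.0% from 200 up to 500 bases and 17.2% from 1000 up to 2000 bases. A gap inside an H3K4me3 peak cannot be longer than that peak. The short gaps, and the fall of the share with gap length, thus follow in large part from the grouping. In H3K4me3 peaks with 2 or more acetylated peaks the strongest had a median score of 747 and the second a median score of 142, and in 38.1% the weakest scored under 100. When H3K9Ac peaks under 1 kb apart were merged, 682 H3K4me3 peaks still held 2 or more.

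The 3 H3K4me3 peaks named for holding the most acetylated peaks were all at the score of 3100. A peak of 55236 bases on chromosome 4 from 382710582 to 382765817 held 7, of 1520 to 21800 bases and scores of 97.8 to 3100, and they acetylated 74.1% of it. A peak of 23255 bases on chromosome 1 from 510061829 to 510085083 also held 7, over 87.0% of its length, with the widest at 7292 bases. A peak of 43533 bases on chromosome 6 from 36296185 to 36339717 held 6, over 79.5%. Next in order after those 3, a peak of 27456 bases on chromosome 1 from 333219564 to 333247019 also held 6. All of them were narrow (1388 to 2299 bases), and only 39.6% of the H3K4me3 peak was acetylated. A high number was thus found both in H3K4me3 peaks that were mostly acetylated and in one that was mostly not.

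The reverse, 1 acetylated peak over several H3K4me3 peaks, was less frequent. It was found for 1348 H3K9Ac peaks (2.63%, 2.50 to 2.78%), and 6 of them touched 4. The widest was on chromosome 2 from 517721404 to 517743535, 22132 bases over H3K4me3 peaks of 1534 to 9219 bases. The second was on chromosome 4 from 337774907 to 337792089 (17183 bases). The third was on chromosome 1 from 385466771 to 385480824 (14054 bases), 6557 bases from the 3′ region of SQSTM1, which encodes an autophagy receptor. Both directions occurred among the strongest peaks, since each of these 3 also scored 3100.

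Where 1 acetylated peak met 1 H3K4me3 peak and neither met another, in 38833 pairs, the acetylated peak was usually the smaller. It lay wholly inside the H3K4me3 peak in 50.5%, enclosed it in 14.0% and was staggered in 35.4%. Median widths were 2161 and 2533 bases, with a median width ratio of 0.867, and the centres were a median of 170 bases apart. The pair shared 93.3% of the acetylated bases and 78.9% of the H3K4me3 bases. Spearman's rho was 0.739 for widths and 0.678 for scores over these pairs, which share the cells and the input.

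H3K9Ac peaks outside H3K4me3 were weak. The 5057 peaks that touched none had a median width of 1405 bases and a median score of 77.6, against 2187 bases and 267 for peaks alone in an H3K4me3 peak, and none was at the ceiling. The share that touched H3K4me3 rose through all 10 equal classes of score, from 66.4% (65.1 to 67.7%) in class 1 to 96.6% (96.0 to 97.0%) in class 6 and 100% (99.9 to 100%) in class 10. Few strong acetylated peaks stood without H3K4me3 in these cells.

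The marks of repression were seldom on acetylated peaks. H3K9me3 peaks shared a base with 1047 H3K9Ac peaks (2.05%, 1.93 to 2.17%), and the median distance from an H3K9Ac peak to the nearest H3K9me3 peak was 28560 bases. The peaks with H3K9me3 were wider and stronger than those without, with a median of 2622 against 2057 bases and a score of 469 against 221, and 98.2% of them touched H3K4me3. Of the 5 widest H3K9Ac peaks, 4 shared a base with an H3K9me3 peak. A wide peak meets any other mark more easily, and this was not separated from width. H3K27me3 shared a base with 49 H3K9Ac peaks (0.0958%, 0.0709 to 0.127%), at a median distance of 300040 bases. H3K9me3 peaks covered 5.27% of the span and H3K27me3 peaks 0.308%. Both distances depend on list length, with 81865 H3K9me3 and 4484 H3K27me3 peaks. Measured from the other side the order was reversed. The median distance to the nearest H3K9Ac peak was 22295.5 bases from an H3K27me3 peak and 174963 bases from an H3K9me3 peak.

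No sequence is shown for these regions, because no genome of this build was used here.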

How the data were processed

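Peaks of native ChIP-seq libraries were analysed as deposited for MonDom5. According to the submitters' processing notes the tools were CASAVA 1.7, Bowtie 1.1.2 and MACS 1.0.1, and the authors compared each antibody library with the input. The score deposited by the authors is the MACS p-value on a log10 scale with its sign reversed, multiplied by 10, and it depends on depth and on peak width. The lists hold no reads, so depth could not be measured from them. The aligned reads that the study states differ between libraries and were not used here, and no number of peaks was adjusted for depth. Per the labels, pooling of chromatin applied only to sisters.

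Starts were converted to count from 1. Peaks on chromosomes 1 to 8 with a score of at least 50 were kept, which leaves out no H3K9Ac peak, and the same threshold was applied to the other marks. For H3K9me3 the study states a call at a p of 1e-05 and a looser one. The 81865 H3K9me3 peaks kept here are more than it states for the whole genome at 1e-05. They are therefore not that set. Together, the deposited lists are as long as the looser H3K9me3 call plus the counts in the study's text for the other marks. The H3K9me3 peaks kept here are thus a cut of the looser call, while the study called the other marks at 1e-05. The span of a chromosome is the largest peak end in any list. A gap counts the bases between neighbours, clusters join peaks less than 10 kb apart, bins are 1 Mb, and partial last bins were left out. A peak was counted in the bin of its centre.

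Python 3.11.15, numpy 2.4.6, pandas 2.3.3 and scipy 1.17.1 were used, and the code was tested on simulated peaks. No significance test was run, since there is 1 library for each antibody. Intervals are exact 95% binomial intervals. The regions named are the 5 widest peaks, the 3 strongest under 1000 bases, the 3 weakest at 10 kb or more, the 5 largest clusters, richest bins and longest gaps, and the 3 extreme cases of each kind with H3K4me3. The H3K4me3 peak next in number of acetylated peaks is named as well. Gene names come from coordinates in the study's supplement, which were read from page images and may hold errors. The members, lists and rules were chosen with earlier results of these data known.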

Additional observations from a re-analysis of the deposited data

How the results depend on the processing

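For 13 results, 45 alternative values were computed. A share was taken as unmoved inside the exact 95% interval of its first value, and any other value within 1.5 times. By this 26 were unmoved and 19 moved. Peaks, covered bases, median gap, both measures of unevenness over bins, the ratio between chromosomes and the width and score correlation stayed within 1.5 times. This held under the alternatives run for each. The margin is wide. A score of at least 100 left 38396 of 51165 peaks and a median gap of 23457 bases against 17145. Shares of peaks, gaps and bins had the narrower interval, so moved and unmoved results were not judged alike. With a score of at least 100, gaps under 10 kb were 32.3%, peaks in clusters of 3 or more 26.7%, clusters of 10 or more 19, bins with no peak 15.6%, H3K4me3 peaks with 2 or more acetylated peaks 1943 and acetylated peaks with a companion 10.6%. With peaks under 1000 bases apart merged, the same values were 31.7%, 26.2%, 24, an unmoved 13.4%, 682 and 3.05%. Gaps under 10 kb were 32.1% between centres. Linking under 5 kb gave 18.8% of peaks in clusters of 3 or more and 8 clusters of 10 or more, and under 20 kb 55.0% and 352. Empty bins were 22.3% at 500 kb and 6.97% at 2 Mb. With at least 50% of the acetylated peak inside the H3K4me3 peak, companions were 10.9%. The numbers that count close neighbours thus depended on how peaks were split and joined.

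No paired analysis was possible because there is 1 library for each antibody. Nothing here measures variation between animals, cultures or libraries. Depth, mappability, copy number and assembly gaps were not analysed, and their part in numbers of peaks, long gaps and empty bins was not tested. The ceiling of the score hides the order of the strongest peaks.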
